A study of Mus musculus with 18 samples.

Results

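The innate RNA sensors followed here were 9 genes for double-stranded and viral RNA sensing, namely *Rigi*, *Ifih1*, *Dhx58*, *Mavs*, *Tlr3*, *Eif2ak2*, *Zbp1*, *Ddx60* and *Adar*. They were taken by name from a count table of 55414 genes, of which 21772 had at least 10 counts in total and were tested, and all 9 sensors were among those tested. The data came from C2C12 cells, an established mouse myoblast line that fuses into myotubes when serum is lowered. Confluent myoblasts were transfected in differentiation medium with a pool of non-targeting siRNA (siNTC), of siRNA against Erk3 (siErk3, gene *Mapk6*) or of siRNA against Mk5 (siMk5, gene *Mapkapk5*), and the resulting myotubes were then kept for 16 h in medium without serum that held either bovine serum albumin alone (BSA) or 0.5 mM palmitic acid bound to it (PA). Each of the 6 groups had 3 libraries of stranded, poly(A)-selected RNA, 18 in all, numbered 1 to 3 within their group. All groups thus shared the cell line, the transfection reagent, a pooled siRNA and the serum-free medium, and no library came from cells without siRNA. Because each target was silenced with 1 pool, a response to the sequences of a pool and a response to the loss of its target cannot be told apart in these data.

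Cells detect double-stranded RNA, a sign of viral infection, in several compartments. RIG-I (*Rigi*) and MDA5 (*Ifih1*) bind it in the cytosol and signal through MAVS on the outer mitochondrial membrane, LGP2 (*Dhx58*) modulates both, and TLR3 senses it in endosomes, and these routes lead to type I interferon and to interferon-stimulated genes, several of which are the sensors themselves. PKR (*Eif2ak2*) halts translation on binding such RNA, ZBP1 binds left-handed nucleic acids and can start necroptosis, *Ddx60* encodes an interferon-induced helicase, and ADAR edits adenosine to inosine in the cell's own double-stranded RNA. An siRNA is itself a short RNA duplex, and some of these proteins are known to be able to recognise one.

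In GRCm39, the build of the counts, *Rigi* (ENSMUSG00000040296) spans chr4:40203773-40239828, *Ifih1* (ENSMUSG00000026896) chr2:62426142-62476599 and *Dhx58* (ENSMUSG00000017830) chr11:100585710-100595097. *Mavs* (ENSMUSG00000037523) spans chr2:131075983-131089945, *Tlr3* (ENSMUSG00000031639) chr8:45848702-45864117 and *Eif2ak2* (ENSMUSG00000024079) chr17:79159993-79190002. *Zbp1* (ENSMUSG00000027514) spans chr2:173048405-173060716, *Ddx60* (ENSMUSG00000037921) chr8:62381121-62491278 and *Adar* (ENSMUSG00000027951) chr3:89622329-89660753. *Mavs*, *Ddx60* and *Adar* are on the plus strand, and counts cover all annotated exons of each gene. No sensor shares exonic bases with another gene on its strand.

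Because most sensors moved together in these libraries, their promoters were read for the core of the interferon-stimulated response element, the motif through which interferon raises transcription. The core was searched as 2 runs of GAAA with any 2 bases between them, on both strands, from 250 bases before to 50 bases after each RefSeq transcription start, in windows that were found once each in GRCm39. Of the 9 sensors, 7 had a window, those without one being *Dhx58* and *Zbp1*, and the core occurred in 4 of these 7, against 3.993% of 27025 genes in the same table. Each matching stretch is given here, and capitals mark the core. All sequences run 5′ to 3′ along the gene's strand.
Rigi: cctgaggcagTTTCGATTTCctatggccag
Ifih1: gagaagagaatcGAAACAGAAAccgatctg
Eif2ak2: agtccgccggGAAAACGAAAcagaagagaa
Ddx60: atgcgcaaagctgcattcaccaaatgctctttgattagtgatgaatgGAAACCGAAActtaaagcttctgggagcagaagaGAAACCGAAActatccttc

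The stretch of *Rigi* lies at chr4:40239804-40239833 on the minus strand, with the core reading on the opposite strand at bases 3 to 12 after the start. That of *Ifih1* lies at chr2:62476550-62476579, minus strand, with the core at bases 33 to 42, and that of *Eif2ak2* at chr17:79189964-79189993, minus strand, with the core at bases 19 to 28, so that these 3 cores fall within the transcribed part. *Ddx60* was the only sensor whose window held the core before the start, and it held it in 2 places with the same 10 letters, at -53 and -19, within chr8:62381021-62381120 on the plus strand. The gamma-activated site, searched as TTCNNNGAA on both strands, occurred in 2 of the 7 genes, *Eif2ak2* at -178 and the most downstream of the 3 *Adar* starts at 23, against 9.554% of all genes. No match of either motif was found in the windows of *Mavs* and *Tlr3*. The window of *Tlr3*, chr8:45863368-45863667 on the minus strand, lies inside the span of the gene as counted. Bases before the annotated start of *Tlr3* at 45864117 were therefore not searched. These matches are letters in a window and were not tested for binding.

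**Figure D1:**
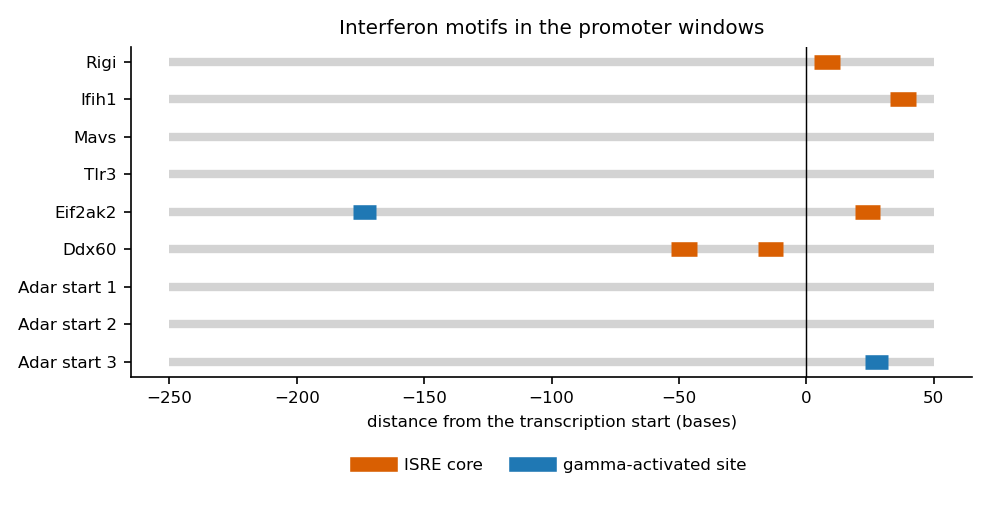
Position of the motifs in the promoter windows of the 7 sensors found in the RefSeq table, as distance in bases from the transcription start (line at 0), with 1 row for each start. Orange boxes mark the core of the interferon-stimulated response element and blue boxes the gamma-activated site, and only Ddx60 has orange boxes, 2 of them, to the left of the start.

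The libraries held 13041979 to 28496727 assigned read pairs, with the lowest total in siNTC BSA library 1. The 18S ribosomal RNA gene *Rn18s-rs5* took a share of these that differed between groups, with 2.56% to 7.17% in siNTC BSA, 1.497% to 2.96% in siErk3 BSA, 8.39% to 12.9% in siMk5 BSA and 1.71% to 6.77% over the 9 PA libraries. All 8 myotube markers were detected in each group, and their summed level was 12296 to 15266 CPM (TMM-normalized counts scaled to a library of 1000000) over the BSA libraries and 11365 to 13218 CPM over the PA libraries. With siNTC it was 13600 to 14305 CPM in BSA and 11578 to 12055 CPM in PA, and with siErk3 the media were apart too. With siMk5 they overlapped, at 12296 to 14215 CPM in BSA and 11365 to 12987 CPM in PA. The 8 leukocyte markers together reached 0.980 to 2.20 CPM, with *Adgre1* and *Siglech* at 0 counts in every group, and the 6 markers of fibroblasts, endothelium and adipocytes 24 to 33.9 CPM in BSA and 12.3 to 17.5 CPM in PA, with *Plin1* at 0. *Mapk6* was lower with siErk3 in BSA by 1.20 ± 0.06 and in PA by 0.95 ± 0.06 on the log2 scale (log2 fold change -1.20 and -0.95 ± SE). Its mean was 132 CPM in siNTC BSA and 57.4 CPM in siErk3 BSA, against 232 CPM in siNTC PA and 120 CPM in siErk3 PA. *Mapkapk5*, with a mean of 2.46 CPM in siNTC BSA, had log2 fold changes with siMk5 of -0.61 ± 0.21 in BSA and -0.49 ± 0.18 in PA that did not pass the test (adjusted p = 0.469 in both media). The paper reports Western blots in which both silencings were efficient and Erk3 protein was also lower with siMk5.

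In control myotubes (siNTC BSA) the sensors were expressed over a wide range, from the adaptor *Mavs* and the kinase *Eif2ak2* at the top to *Ddx60* at the bottom. Per kilobase of annotated exon, the mean level was 8.29 ± 0.317 CPM for *Mavs*, 7.20 ± 0.278 for *Eif2ak2*, 5.18 ± 0.0589 for *Adar* and 3.78 ± 0.160 for *Rigi* (SD, n = 3). *Tlr3* stood at 1.14 ± 0.0601 CPM per kilobase, *Ifih1* at 0.625 ± 0.131, *Dhx58* at 0.506 ± 0.0808, *Zbp1* at 0.384 ± 0.113 and *Ddx60* at 0.0764 ± 0.00446. The 3 lowest genes rested on few read pairs, with 22 to 47 counts per library for *Dhx58*, 19 to 39 for *Zbp1* and 10 to 15 for *Ddx60*. In PA with siNTC the order per kilobase was another one, led by *Eif2ak2* at 25.6 ± 1.98 CPM, *Adar* at 18.1 ± 0.945 and *Rigi* at 14.8 ± 1.16, with *Ifih1* at 9.69 ± 1.48 now beside *Mavs* at 8.89 ± 0.238.

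**Figure D2:**
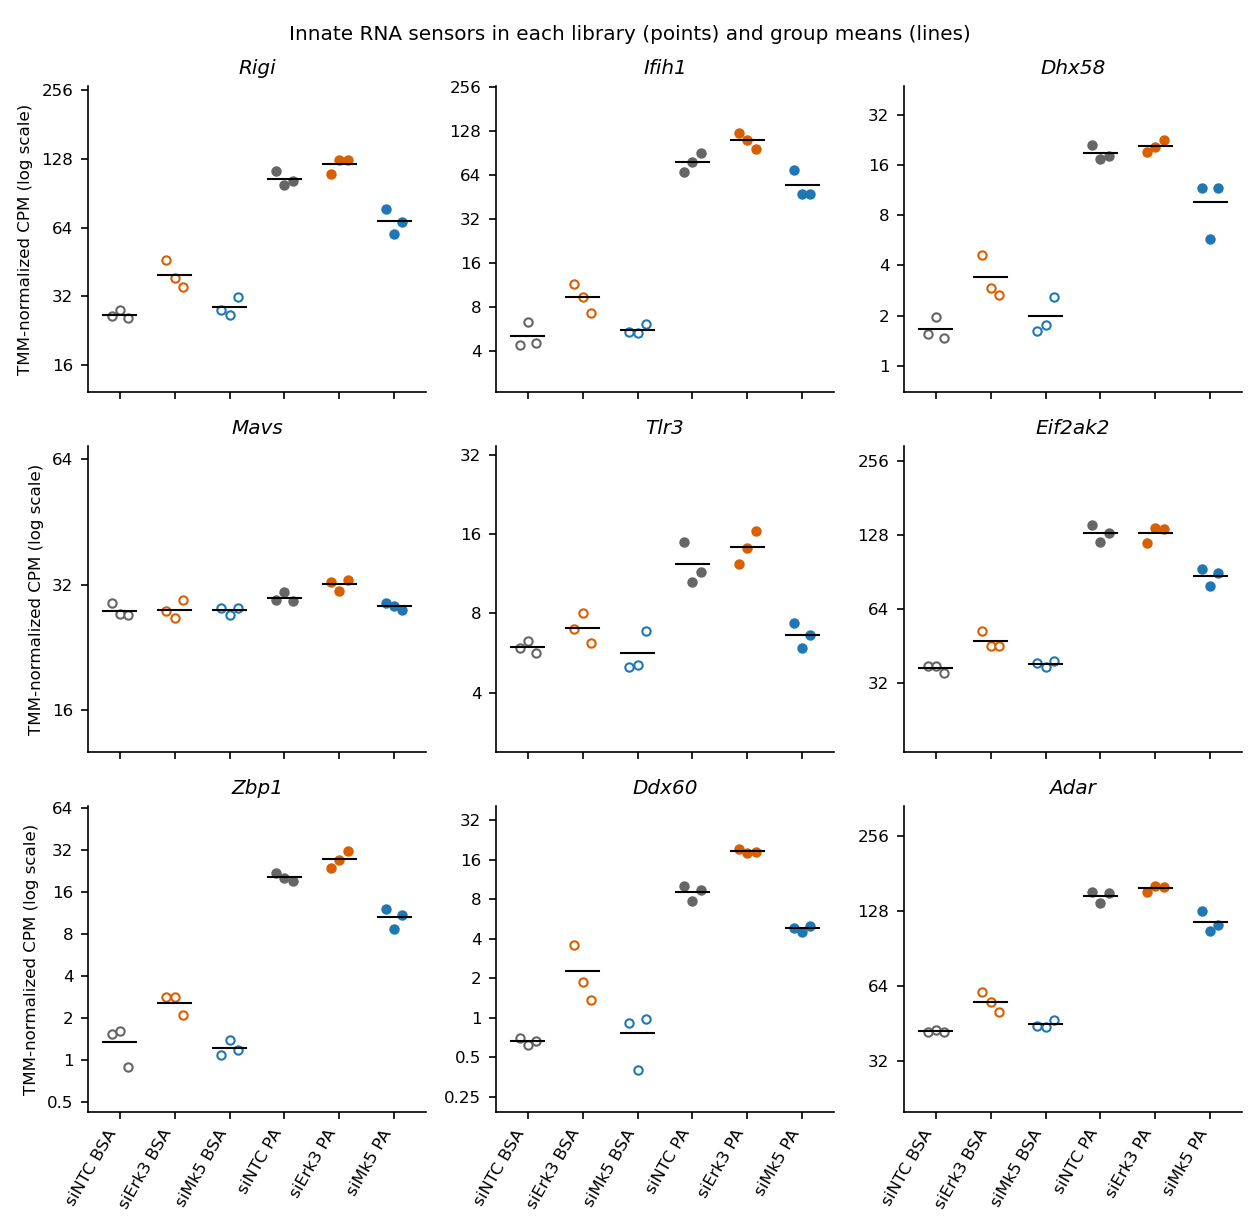
Level of each sensor in the 18 libraries in TMM-normalized CPM on a log axis, with open points for BSA, filled points for PA and a line at each group mean. Mavs stays between 26.6 and 32.8 CPM in every library, while the other sensors are higher in PA under each siRNA, apart from Tlr3 under siMk5, and among the PA groups have their lowest mean with siMk5.

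Silencing of Erk3 in BSA was compared with non-targeting siRNA to ask how the sensors stood without fatty acid. Of the 9 sensors, 5 were higher with siErk3 and none was lower by edgeR's quasi-likelihood test at a false discovery rate (FDR) under 0.05 with a fold change over 1.3, the criteria used throughout, where 0.588% of the 21772 genes tested were higher and 0.198% lower. The 5 were *Rigi*, *Ifih1*, *Zbp1*, *Ddx60* and *Adar*. All 9 estimates were above 0, their median was 0.58 on the log2 scale against 0.02 for all genes tested, and the adaptor *Mavs* was at 0.01 ± 0.06 (log2 fold change ± SE). In bulk RNA of this kind, fewer cells of a type and less RNA per cell cannot be told apart.

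*Rigi* measured 26.3, 27.9 and 25.8 CPM in the 3 siNTC BSA libraries and 46.3, 38.4 and 35.1 CPM in the 3 siErk3 BSA libraries. The groups did not overlap, and the fold change was 1.49 (log2 0.58 ± 0.09, adjusted p = 0.000414). *Ifih1*, which recognises long duplexes, measured 4.43, 6.33 and 4.54 CPM with siNTC against 11.5, 9.36 and 7.33 CPM with siErk3. Every siErk3 library thus lay above every control library, and the fold change was 1.78 (log2 0.84 ± 0.20, adjusted p = 0.0320). *Dhx58*, the regulator of both, measured 1.55, 1.96 and 1.47 CPM against 4.65, 2.91 and 2.65 CPM, again without overlap. With a log2 fold change of 1.00 ± 0.28 it did not pass (adjusted p = 0.0946).

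Downstream of these helicases, *Mavs* measured 28.9, 27.2 and 27.0 CPM with siNTC and 27.6, 26.6 and 29.3 CPM with siErk3, so that the 2 groups covered the same range. The 95% interval of its log2 fold change ran from -0.11 to 0.13. The endosomal sensor *Tlr3* was at 5.90, 6.29 and 5.67 CPM against 7.01, 8.01 and 6.15 CPM, and these groups overlapped, with a log2 fold change of 0.23 ± 0.15 (adjusted p = 0.612).

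Among the effectors, *Eif2ak2* measured 37.7, 37.6 and 35.2 CPM with siNTC and 51.9, 45.4 and 45.1 CPM with siErk3. It passed the FDR criterion (adjusted p = 0.00313), which alone was met by 6 of the 9 sensors and 1.21% of all genes, but its fold change of 1.29 stayed just under the limit of 1.3. *Zbp1*, at 1.55, 1.63 and 0.898 CPM against 2.83, 2.83 and 2.11 CPM, was higher with a fold change of 1.90 (log2 0.93 ± 0.23, adjusted p = 0.0397). The helicase *Ddx60*, at 0.702, 0.625 and 0.662 CPM against 3.55, 1.86 and 1.36 CPM, had the largest change of the 9, a fold change of 3.35 (log2 1.74 ± 0.32, adjusted p = 0.00145), and also the widest spread among the siErk3 libraries. The editing enzyme *Adar*, at 41.7, 42.6 and 41.8 CPM against 60.3, 54.8 and 50.2 CPM, passed narrowly with a fold change of 1.31 (log2 0.39 ± 0.07, adjusted p = 0.000789).

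The groups of siNTC and siErk3 in BSA were apart for 7 of the 9 sensors, compared with 17.4% of all genes tested, and for each of the 7 the exact two-sided permutation test of 3 against 3 libraries gave p = 0.1, the smallest value it allows. Within siErk3 BSA, leaving *Mavs* aside, library 1 was the highest of the group for 7 of 8 sensors and library 3 the lowest for all 8. The share of all genes with library 1 highest or library 3 lowest was not computed. Without siErk3 BSA library 1 only 2 sensors passed, and without siNTC BSA library 3 or siMk5 BSA library 2 only 3 did. Of all genes, 137, 130 and 156 passed in these fits, against 171 with every library. The siMk5 BSA library is outside this comparison but enters the fit that all groups share, and how leaving it out changed the calls was not tested. *Rigi* and *Ddx60* passed in all 18 fits that each left out 1 library, *Adar* in 17, *Ifih1* in 13 and *Zbp1* in 12. The 18S share was 1.497% to 2.96% in siErk3 BSA and 2.56% to 7.17% in siNTC BSA, and with that share as a covariate 6 of the 9 sensors passed, *Dhx58* and *Eif2ak2* being gained and *Ifih1* lost (log2 0.95, adjusted p = 0.0557 by edgeR), with 111 of all genes passing in place of 171.

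Silencing of Mk5 in BSA, which shares the siNTC libraries with the comparison above, left the sensors near the control level. By edgeR 0 of the 9 sensors passed, with 0.0643% of all genes passing in either direction, and the number was also 0 at an unadjusted p under 0.05 and by DESeq2. The largest estimates were a log2 fold change of 0.23 ± 0.41 for *Ddx60*, at 0.916, 0.403 and 0.980 CPM in the siMk5 BSA libraries, and 0.22 ± 0.33 for *Dhx58*, at 1.61, 1.76 and 2.58 CPM. The intervals bound what could have been missed. For the well-counted genes they were narrow, from -0.10 to 0.31 for *Rigi*, from -0.09 to 0.21 for *Eif2ak2* and from -0.05 to 0.23 for *Adar*, whereas for *Ddx60* the interval ran from -0.61 to 1.07 and for *Zbp1* from -0.72 to 0.44. *Adar* was the only sensor whose groups did not overlap, at 44.1, 43.6 and 46.6 CPM with siMk5, where 12.3% of all genes were apart.

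Set directly against each other in BSA, the 2 silencings differed for 3 sensors, all higher with siErk3, where 0.482% of all genes were higher. These were *Rigi* with a log2 fold change of 0.47 ± 0.09 (adjusted p = 0.00450), *Zbp1* with 1.07 ± 0.24 (adjusted p = 0.0144) and *Ddx60* with 1.51 ± 0.30 (adjusted p = 0.00475). *Eif2ak2* at 0.31 ± 0.07 and *Adar* at 0.30 ± 0.07 passed the FDR criterion alone, which 5 of the 9 sensors and 0.818% of all genes met. The 18S share did not overlap between these groups, and its part in the result was not tested other than by a fit with that share as a covariate, in which 5 sensors and 78 of all genes passed, with *Dhx58*, *Eif2ak2* and *Adar* gained and *Ddx60* lost (log2 1.77, adjusted p = 0.0553 by edgeR). Without siErk3 BSA library 1 none of the 9 passed, and without siMk5 BSA library 2 only 1 did. Of all genes, 108 and 104 passed in these fits, against 128 with every library.

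**Figure D3:**
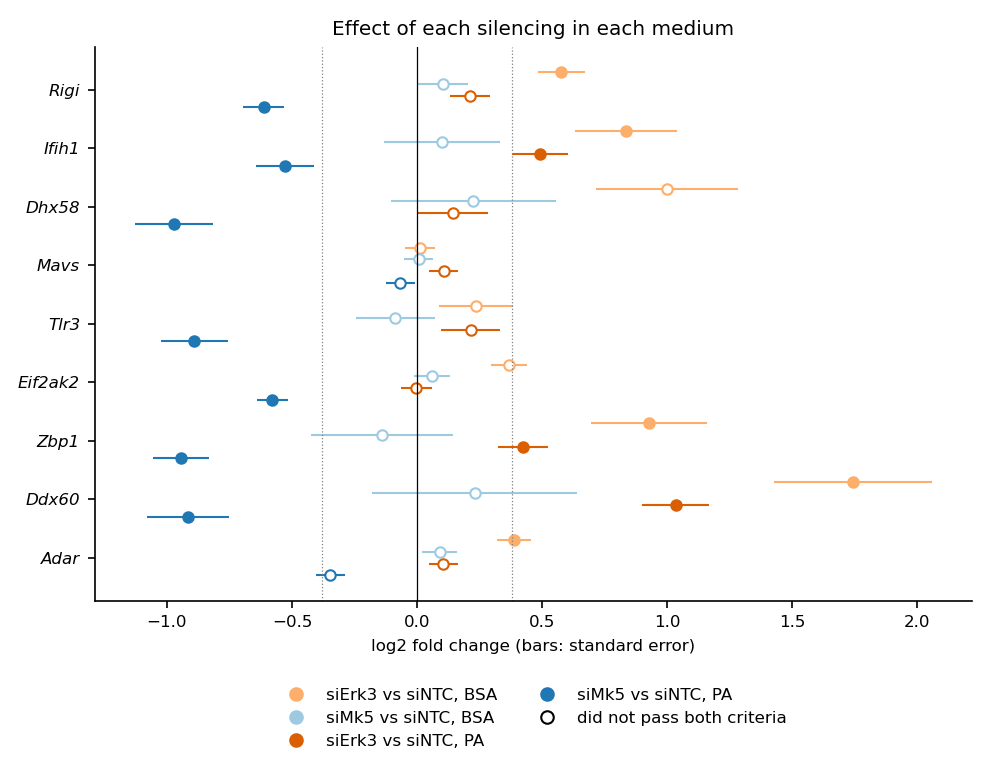
Log2 fold change of each sensor with siErk3 or siMk5 against siNTC in BSA and in PA, with bars for the standard error, filled points where both criteria were passed and dotted lines at a fold change of 1.3. Estimates with siErk3 lie at or to the right of 0 in both media, those with siMk5 near 0 in BSA and to the left of 0 in PA, and Mavs stays near 0 throughout.

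Palmitic acid was compared with BSA under each siRNA. In siNTC cells 8 of 9 sensors were higher in PA, all but *Mavs*, where 15.5% of all genes tested were higher. The cytosolic sensors of long duplexes and of left-handed nucleic acids rose most, *Ifih1* with a fold change of 15.1 and *Zbp1* with 15.03, followed by *Ddx60* with 13.6 and *Dhx58* with 11.2. The better expressed *Rigi*, *Eif2ak2* and *Adar* rose by fold changes of 3.91, 3.55 and 3.499, and *Tlr3* by 2.06.

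*Rigi* measured 114, 97.8 and 102 CPM in the siNTC PA libraries, giving a log2 fold change over BSA of 1.97 ± 0.09 (adjusted p = 1.02e-17). *Ifih1* measured 67.2, 78.9 and 91.4 CPM there, giving 3.92 ± 0.16 (adjusted p = 7.47e-19), and *Dhx58* measured 21.1, 17.4 and 18.1 CPM, giving 3.49 ± 0.22 (adjusted p = 2.01e-14). Each of the 3 helicases was thus above its whole BSA range in every PA library. The adaptor *Mavs*, in contrast, measured 29.3, 30.6 and 29.2 CPM, and its log2 fold change was 0.11 ± 0.06 (adjusted p = 0.154).

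*Tlr3* measured 14.9, 10.5 and 11.5 CPM in siNTC PA, with a log2 fold change of 1.04 ± 0.14 (adjusted p = 1.57e-07). The kinase *Eif2ak2* measured 141, 121 and 131 CPM (log2 1.83 ± 0.07) and the editor *Adar* 152, 138 and 151 CPM (log2 1.81 ± 0.06). *Zbp1* measured 22, 19.97 and 19 CPM (log2 3.91 ± 0.17) and *Ddx60* 10.0, 7.71 and 9.30 CPM (log2 3.77 ± 0.25). All 9 sensors were apart between PA and BSA with siNTC, *Mavs* by a small margin, where 51.6% of all genes were.

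The same 8 sensors rose with PA under siErk3, where 15.8% of all genes were higher, and 7 did under siMk5, where 15.1% were. The exception under siMk5 was *Tlr3*, at 7.37, 5.92 and 6.605 CPM in PA against 5.01, 5.08 and 6.86 CPM in BSA, groups that overlapped and gave a log2 fold change of 0.24 ± 0.15 (adjusted p = 0.221). *Mavs* under siErk3 passed the FDR criterion, as did 47.1% of all genes, with a fold change of only 1.15. The 4 myoblast and dividing cell markers were detected in all groups and their summed level was lower in PA, at 292 to 395 CPM against 743 to 811 CPM in BSA, with *Mki67*, *Top2a* and *Pax7* lower in siNTC cells. Of the 8 myotube markers 4 were lower in PA with siNTC, where 15.1% of all genes were lower. With siErk3 1 was lower and with siMk5 1, where 16.3% and 14.6% of all genes were. The part of either difference in the rise of the sensors was not tested.

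**Figure D4:**
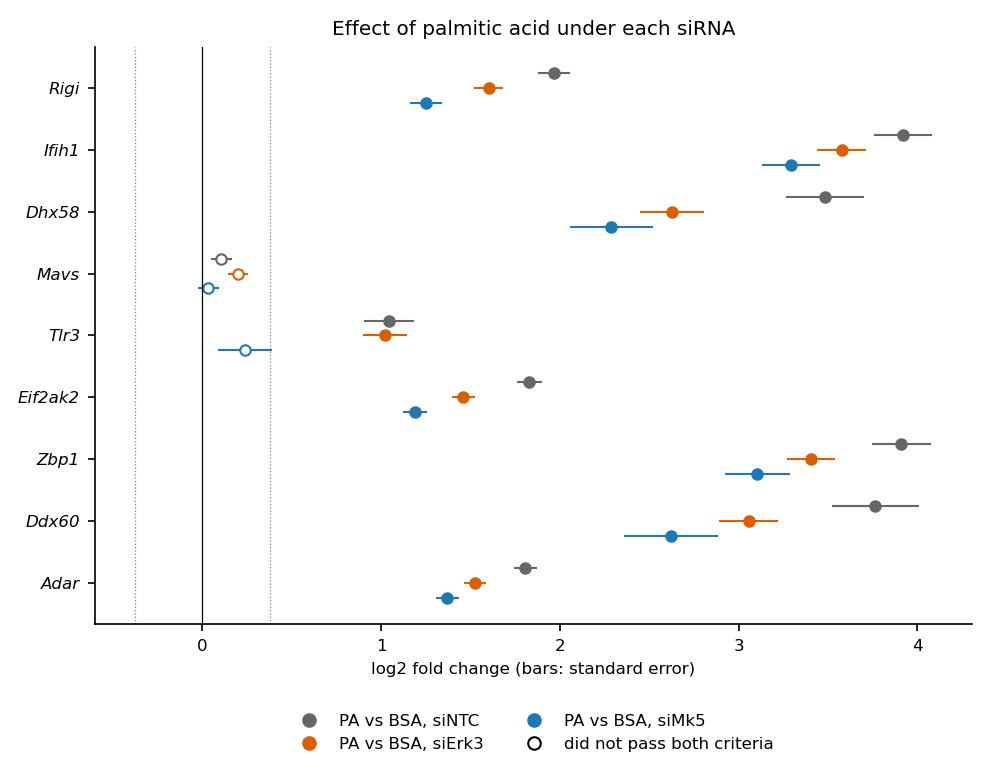
Log2 fold change of each sensor in PA against BSA under each siRNA, with bars for the standard error and filled points where both criteria were passed. Estimates under siMk5 are the lowest of the 3 for each sensor, those under siNTC the highest except for Mavs, and Mavs lies left of the dotted line at a fold change of 1.3 under each siRNA.

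In PA, silencing of Erk3 was again compared with non-targeting siRNA, and 3 of the 9 sensors were higher, *Ifih1*, *Zbp1* and *Ddx60*, where 0.432% of all genes were higher. *Ddx60* measured 19.4, 17.8 and 18.2 CPM with siErk3 against 10.0, 7.71 and 9.30 CPM with siNTC, a fold change of 2.05 (log2 1.03 ± 0.13, adjusted p = 1.41e-05). *Ifih1* measured 124, 112 and 96.6 CPM, a fold change of 1.40 (log2 0.49 ± 0.11, adjusted p = 0.0210), and *Zbp1* 23.6, 27.2 and 31.2 CPM, a fold change of 1.34 (log2 0.42 ± 0.10, adjusted p = 0.0271). For these 3 and for *Mavs* and *Adar* every siErk3 library was above every siNTC library, where 12.3% of all genes had groups apart.

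The remaining sensors did not pass with siErk3 in PA. The 95% intervals of the log2 fold change ran from 0.05 to 0.37 for *Rigi*, from -0.14 to 0.43 for *Dhx58* and from -0.03 to 0.46 for *Tlr3*. *Rigi* was at 110, 127 and 126 CPM with siErk3, overlapping siNTC, with a log2 fold change of 0.21 ± 0.08 (adjusted p = 0.370), and *Dhx58* at 19.3, 20.7 and 22.7 CPM with 0.14 ± 0.14. *Eif2ak2*, at 120, 137 and 135 CPM, had a log2 fold change of 0.00 with a 95% interval from -0.13 to 0.12. *Adar* at 0.10 ± 0.06, *Tlr3* at 0.21 ± 0.12 and *Mavs* at 0.11 ± 0.06 did not pass either. *Ddx60* passed in all 18 fits that left out 1 library, whereas *Ifih1* and *Zbp1* passed in 14 each, and only *Ddx60* passed without siNTC PA library 2, without siErk3 PA library 2 or by DESeq2. Of all genes, 84, 85 and 110 passed in the last named fits, against 121 in the main fit.

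Silencing of Mk5 in PA, compared with the same siNTC PA libraries, went the other way. Here 7 of the 9 sensors were lower, where 0.491% of all genes were lower, and none was higher. *Dhx58*, *Zbp1*, *Ddx60* and *Tlr3* were reduced to about the same degree, with fold changes of 0.51, 0.52, 0.53 and 0.54, and *Rigi*, *Eif2ak2* and *Ifih1* less, with 0.65, 0.67 and 0.69. The median log2 fold change of the 9 was -0.61, against 0.00 for all genes tested.

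*Rigi* measured 76.8, 60.1 and 67.7 CPM with siMk5 in PA, all below the siNTC range, with a log2 fold change of -0.61 ± 0.08 (adjusted p = 1.28e-05). *Dhx58* measured 11.6, 5.73 and 11.6 CPM, with -0.97 ± 0.16 (adjusted p = 0.000258), library 2 being far below the other two. *Ifih1* measured 68.9, 47.4 and 47.8 CPM, with -0.53 ± 0.12 (adjusted p = 0.0145), and was the only one of the 7 whose groups overlapped, through library 1. *Mavs* stayed at 28.9, 28.4 and 27.8 CPM, with a log2 fold change of -0.07 ± 0.06 and a 95% interval from -0.19 to 0.05.

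*Tlr3*, at the 7.37, 5.92 and 6.605 CPM given above, was lower by a log2 fold change of -0.89 ± 0.13 (adjusted p = 8.89e-05), which put it at its level in BSA. The kinase *Eif2ak2* measured 93.2, 79.9 and 89.6 CPM, with -0.58 ± 0.06 (adjusted p = 5.01e-07). *Zbp1* measured 12, 8.71 and 11 CPM, with -0.94 ± 0.11 (adjusted p = 1.86e-06), and *Ddx60* 4.81, 4.52 and 5.01 CPM, with -0.92 ± 0.16 (adjusted p = 0.000996). *Adar*, at 128, 106 and 112 CPM, passed the FDR criterion (adjusted p = 0.000559), as did 8 of the 9 sensors and 0.776% of all genes, but its log2 fold change of -0.35 ± 0.06 was inside the fold limit.

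The groups of siNTC and siMk5 in PA were apart for 8 of the 9 sensors, compared with 12.2% of all genes tested. Without *Mavs*, siMk5 PA library 2 was the lowest of its group for all 8 sensors and library 1 the highest for 6, ranks for which the share of all genes was not computed. Library 2 also had the lowest 18S share of the 9 PA libraries, 1.71%. Leaving out any 1 library gave 6 to 8 sensors, and of the 7 only *Ifih1* ever lost its call, passing in 14 of 18 such fits. *Ifih1* also missed the threshold by DESeq2 (adjusted p = 0.288) and with the 18S share as a covariate (log2 -0.47, adjusted p = 0.134 by edgeR), and 6 sensors passed in each of these fits. In the main fit 119 of all genes, or 0.547%, passed in either direction. The numbers of all genes passing in the other fits of this comparison are not given here.

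With both silencings set against each other in PA, 8 of 9 sensors were higher with siErk3 than with siMk5, all but *Mavs*, where 0.854% of all genes were higher. The gap was widest for *Ddx60*, with a fold change of 3.86 (log2 1.95 ± 0.15, adjusted p = 5.62e-11), and for *Zbp1*, with 2.58 (log2 1.37 ± 0.11, adjusted p = 1.36e-10). It came to fold changes of 2.17 for *Dhx58*, 2.15 for *Tlr3*, 2.02 for *Ifih1*, 1.77 for *Rigi*, 1.49 for *Eif2ak2* and 1.37 for *Adar*. All 9 sensors were apart between these groups, where 14.7% of all genes were, and *Mavs*, with a fold change of 1.13, did not pass (adjusted p = 0.182). The count of 8 was obtained in every fit run, including those without 1 library.

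Whether each silencing acted differently in the 2 media was asked of the interaction term. For siErk3, 0 of the 9 sensors passed by edgeR, where 0.0367% of all genes did in either direction, and 0 passed by DESeq2. The estimates were negative for 8 of 9, from -0.86 ± 0.32 for *Dhx58* to -0.02 ± 0.19 for *Tlr3*, with *Mavs* at 0.09 ± 0.08, so that a smaller effect of siErk3 in PA was not shown for any sensor, although *Dhx58* (-1.38) and *Eif2ak2* (-0.47) passed with the 18S share as a covariate, where 29 of all genes passed. For siMk5, 3 sensors passed with a lower value in PA, where 0.161% of all genes did, namely *Eif2ak2* at -0.64 ± 0.10 (adjusted p = 0.000819), *Rigi* at -0.72 ± 0.13 (adjusted p = 0.00632) and *Adar* at -0.44 ± 0.09 (adjusted p = 0.0234). *Rigi* and *Eif2ak2* passed in all 18 fits that left out 1 library and *Adar* in 9. With the 18S share as a covariate none of the 3 passed, nor did any of the 21772 genes tested, against 46 without it, and the 18S share of siMk5 BSA, 8.39% to 12.9%, was above that of every other library.

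Ordered by mean level, 6 of the 9 sensors had the groups in the same sequence, from siNTC BSA through siMk5 BSA, siErk3 BSA, siMk5 PA and siNTC PA to siErk3 PA. These were *Rigi*, *Ifih1*, *Dhx58*, *Mavs*, *Adar* and *Ddx60*, and of them only *Adar* had no overlap between neighbouring groups. The lowest pair, siNTC BSA and siMk5 BSA, overlapped for the other 5. So did siNTC PA and siErk3 PA for *Rigi* and *Dhx58*, siMk5 PA and siNTC PA for *Ifih1*, and for *Mavs* each neighbouring pair among the 4 lowest groups. *Zbp1* differed in that siMk5 BSA and siNTC BSA changed places, groups that overlapped, and *Eif2ak2* in that siNTC PA and siErk3 PA did, at 131 ± 10.1 and 131 ± 9.53 CPM (SD, n = 3). In *Tlr3* siMk5 BSA came below siNTC BSA and siMk5 PA below siErk3 BSA, and in both cases the groups overlapped. The means of *Mavs* in BSA were nearly equal, at 27.7 CPM with siNTC, 27.7 CPM with siMk5 and 27.8 CPM with siErk3. The siErk3 BSA libraries lay below every PA library for each sensor other than *Tlr3* and *Mavs*. Of all genes tested, 51.6% had PA and BSA groups apart with siNTC, 53.9% with siErk3 and 51.9% with siMk5. The share of all genes with the same order of groups, or with siErk3 BSA below every PA library, was not computed.

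Genes with the pattern most like that of each sensor over the 18 libraries, by Pearson's r of log2 CPM, were sought among 12712 other genes with a mean of at least 1 CPM. *Adar* was closest to *Stat2* (r = 0.998), *Rnf213* and *Helz2*, *Eif2ak2* to *Irgm1* (0.997), *Stat2* and *Gm6548*, and *Ifih1* to *Ifi203* (0.997), *Adar* and *Trim25*. *Rigi* was closest to *Gbp3* (0.996), *Samd9l* and *Parp14*, *Zbp1* to *Apol9b* (0.995), *Gbp7* and *Irgm1*, and *Dhx58* to *Rigi* (0.994), *Gbp3* and *Irf7*. *Ddx60* followed *Iigp1* (0.988), *Tgtp2* and *Trim34b*, and *Tlr3* followed *Gbp2* (0.957), *Trim12c* and *Tor1aip1*. *Mavs* had no such close neighbour, the nearest being *2310061I04Rik* at 0.859. These values rest largely on the step between BSA and PA, which all libraries share. As deviations from the group means, *Rigi* and *Adar* correlated at 0.93, *Rigi* and *Eif2ak2* at 0.91 and *Rigi* and *Dhx58* at 0.87 over the 18 libraries, *Zbp1* and *Ddx60* at 0.03, and *Mavs* at -0.24 to -0.02 with the other 8, as a description of libraries in which depth and normalization are shared by all genes.

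The remaining genes around RNA sensing were followed as lists. The shares of all genes given above for each comparison are the background of these counts, namely 0.588% higher with siErk3 in BSA, 0.432% higher with siErk3 in PA and 0.491% lower with siMk5 in PA. Of 27 other RNA-binding sensors 23 were tested, and with siErk3 in BSA 7 were higher and none lower, with the smallest p for the oligoadenylate synthetase *Oas2* (log2 fold change 2.67 ± 0.28), its relative *Oasl2* (1.26 ± 0.16), the RNA-binding *Ifit1* (1.92 ± 0.28) and *Oas1g* (2.91 ± 0.44). With siErk3 in PA 5 were higher, with the smallest p for *Oas1g* (1.62 ± 0.15), *Oas3* (1.16 ± 0.12), *Oas1a* (1.07 ± 0.12) and *Oas2* (0.93 ± 0.15). With siMk5 none passed in BSA, and in PA 10 were lower, with the smallest p for *Znfx1* (-0.50 ± 0.05), *Ifit3* (-1.24 ± 0.14), *Ifit2* (-0.59 ± 0.07) and *Oasl2* (-0.83 ± 0.10). The oligoadenylate synthetases and the IFIT genes are families of similar copies, among which reads may be divided unevenly. The medians of the 23 were 0.15, 0.00, 0.11 and -0.42 for siErk3 in BSA, siMk5 in BSA, siErk3 in PA and siMk5 in PA, and *Tlr7*, the endosomal sensor of single-stranded RNA, had 2 to 5 counts per group, with *Tlr8* at 0.

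Among 13 early target genes of RNA sensing, 5 were higher with siErk3 in BSA, *Usp18* (2.31 ± 0.30), *Isg15* (1.52 ± 0.22), *Stat2* (0.46 ± 0.08), *Rsad2* (2.37 ± 0.43) and *Irf9* (0.59 ± 0.11), and 3 in PA, *Rsad2* (1.64 ± 0.10), *Ccl5* (0.56 ± 0.09) and *Usp18* (0.41 ± 0.10). With siMk5 none passed in BSA and 8 were lower in PA, among them *Usp18* (-1.06 ± 0.11), *Stat2* (-0.58 ± 0.06) and *Isg15* (-0.96 ± 0.11). Of 10 type I and III interferon genes only *Ifnb1*, which encodes interferon beta, reached 10 counts, with 0 counts in all 9 BSA libraries and, summed over 3 libraries each, 7 in siNTC PA, 17 in siErk3 PA and 4 in siMk5 PA. On these few counts *Ifnb1* passed as higher in PA than in BSA with siNTC (log2 fold change 4.34) and with siErk3 (5.43). With siMk5 (3.60) it did not pass. In these 3 comparisons 15.5%, 15.8% and 15.1% of all genes were higher. Interferon transcripts were thus at the edge of detection at this depth. With siErk3 set against siMk5, 7 of the other sensors and 6 of the early targets were higher with siErk3 in BSA, where 0.482% of all genes were, and 11 and 10 in PA, where 0.854% were.

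The signalling components downstream of the sensors were followed in the same way. Of 36 genes of RIG-I and MAVS signalling, *Irf7*, a transcription factor that is itself interferon-stimulated, was the only one that passed with siErk3 in BSA (1.52 ± 0.23) and the only one with siMk5 in PA (-0.93 ± 0.12), while *Nlrc5* was the only one with siErk3 in PA (0.93 ± 0.11). No gene passed in any of the 4 silencing comparisons among 12 of TLR3 signalling, 13 of the PKR arm and the other kinases of its substrate, 10 of cell death downstream of ZBP1, 10 of 13 further proteins that bind or edit double-stranded RNA and 15 of siRNA handling such as *Dicer1*, *Ago2* and *Tnrc6a*. The medians of these 5 lists lay between -0.03 and 0.06 in the 4 comparisons. 
With PA in siNTC cells 15.5% of all genes tested were higher and 15.1% lower, against which the list counts are to be read. Higher were 17 of the other sensors, with the smallest p for *Ifit1* (6.72 ± 0.20), *Zc3hav1* (1.63 ± 0.05), *Oasl2* (4.02 ± 0.13) and *Ifit3* (6.65 ± 0.23). Also higher were 11 early targets, with the smallest p for *Atf3* (4.78 ± 0.12), *Cxcl10* (7.34 ± 0.20), *Stat2* (2.32 ± 0.07) and *Isg15* (5.10 ± 0.17), and none of either list was lower. In RIG-I and MAVS signalling 11 were higher, among them the ubiquitin ligase *Trim25* (1.60 ± 0.06) that acts on RIG-I and *Irf7* (4.01 ± 0.18), and 2 were lower, and in TLR3 signalling 5 were higher, among them its adaptor *Ticam1* (0.80 ± 0.07). In the PKR arm 6 were higher, among them the phosphatase subunit *Ppp1r15a* (3.41 ± 0.08) that restores translation, and 1, the PKR activator *Prkra* (-0.45 ± 0.08), was lower. In the ZBP1 arm 3 were higher, among them the necroptosis effector *Mlkl* (1.87 ± 0.08), and *Casp6* (-0.60 ± 0.09) was lower. Of the 10 further double-stranded RNA-binding proteins 2 were higher and 2 lower, and of the 15 genes of siRNA handling 2 were higher and 4 lower.

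**Figure D5:**
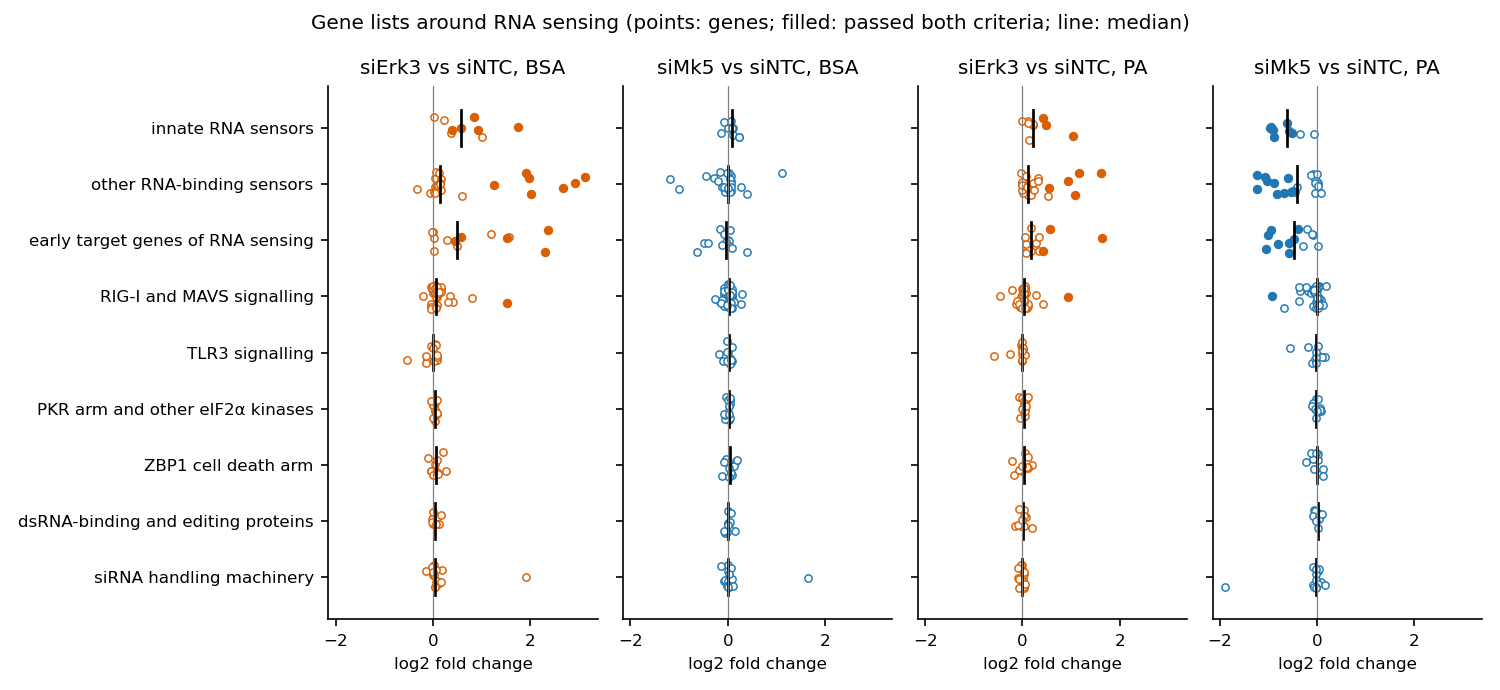
Log2 fold change of single genes of each list, with filled points where both criteria were passed and a line at the median, for siErk3 and siMk5 against siNTC in BSA and PA. Filled points occur among the 9 innate RNA sensors, the other RNA-binding sensors, the early target genes and, singly, in RIG-I and MAVS signalling, to the right of 0 with siErk3 and to the left of 0 with siMk5 in PA.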

How the data were processed

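Total RNA of C2C12 myotubes in 18 samples, 3 libraries for each of 6 groups, was profiled by stranded paired-end sequencing. Groups and replicate numbers are those of the sample labels. The sources used here do not say if same-group libraries were cultured apart, so p-values measure the spread between these libraries. The counts were deposited by the authors without normalization, as read pairs per gene from featureCounts 2.0.0 with GRCm39, Ensembl 105, strand setting 2 and a minimum mapping quality of 3, after trimming and STAR alignment. A further deposited table has log2 of the size-factor-scaled count plus 1 (relative deviation at most 7e-14) and was only compared with the counts. Replicates were checked for duplicates, and none agreed within sampling noise.

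Symbols came from GENCODE M39 and were found for 21601 of 21772 tested genes, those reaching a summed count of 10. One edgeR 4.0.16 quasi-likelihood fit (glmQLFit, limma 3.58.1, R 4.3.3) with TMM and a coefficient per group gave 11 comparisons, with Benjamini-Hochberg adjustment over all genes tested, in place of the DESeq2 named in the methods, which was run as an alternative (1.42.0). The fit was tested on simulated counts. Intervals are at 95%, and SE is the fold change over the root of F. Total counts of 13041979 to 28496727 make genes with few counts, such as Ddx60 in BSA, the least precise. Alternatives were DESeq2, its size factors, filterByExpr, no filter, the replicate number as a block, FDR alone, only the groups compared, the 18S share as covariate, upstream bases only for motifs, and leaving out each library. The sensors, lists, motifs and tests were chosen with earlier results of these data known, so counts are descriptions. Named genes are the sensors, both targets, the nearest 3 patterns, and up to 4 called genes per list and comparison by smallest p, 1 of which is not reported here. *Irf9* and *Prkra*, *Dicer1*, *Ago2* and *Tnrc6a*, outside this rule, were picked from their lists after the values were seen, as were the marker genes. Promoter windows are from RefSeq (GRCm38.p6 table) and were matched exactly to GRCm39. Sequences of the siRNAs were not used here. Python 3.11.15 with numpy 2.4.6, pandas 2.3.3 and matplotlib 3.10.9 served for the rest.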

Additional observations from a re-analysis of the deposited data

Results flagged for a closer look

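The effect of siMk5 differed between the media for 3 sensors by the interaction term of the edgeR fit, each with a lower value in PA. The difference of the log2 fold changes was -0.72 for *Rigi* (0.10 in BSA, -0.61 in PA), -0.64 for *Eif2ak2* (0.06 and -0.58) and -0.44 for *Adar* (0.09 and -0.35). All 3 siMk5 PA libraries lay below all 3 siNTC PA libraries for each of these genes, where 12.2% of all genes had these groups apart. With 1 library left out *Rigi* and *Eif2ak2* passed in 18 of 18 fits and *Adar* in 9. With the 18S share as a covariate none of the 3 passed, nor did any other gene.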

How the results depend on the processing

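Of 693 estimates for single sensors recomputed under the other settings, 638 kept their direction and side of the threshold, as did 1703 of 1782 with 1 library left out. The cause of the changes was not tested, apart from fewer samples or genes in the fit. The number of sensors called for siErk3 in BSA was 2 with filterByExpr, where 160 of all genes passed, against 171 in the main fit. That for siErk3 in PA was 1 by DESeq2, where 110 of all genes passed, against 121. That for siErk3 against siMk5 in BSA was 5 with no filter, with FDR alone, with only the groups compared and with the 18S share. Under these settings 201, 178, 180 and 78 of all genes passed, against 128 in the main fit. The interaction gave 1 sensor for siErk3 with no filter, where 72 of all genes passed, and 2 with the 18S share, where 29 did, against 8 in the main fit. For siMk5 it gave 6 with no filter, where 130 of all genes passed, and 0 with the 18S share, where 0 of all genes passed. In that fit *Rigi* was at -0.50 (adjusted p = 0.406), *Eif2ak2* at -0.49 (0.147) and *Adar* at -0.31 (0.569) by edgeR. In upstream bases only, 1 of the 7 sensors with a window held the core, against 3.463% of all genes, and 1 the gamma-activated site, against 8.13%. With 1 library left out, 2 to 6 sensors were called for siErk3 in BSA, 1 to 3 for siErk3 in PA, 6 to 8 for siMk5 in PA, 0 to 4 for siErk3 against siMk5 in BSA and 2 to 3 for the siMk5 interaction, and the other counts did not move. In the main fit 171, 121, 119, 128 and 46 of all genes passed in these comparisons, in the order named. The numbers of all genes with 1 library left out are given above for some of these fits only. The replicate number as a block left all counts of called sensors as they were (5 for siErk3 in BSA, 3 in PA, 7 for siMk5 in PA). Same-numbered libraries of different groups correlated at -0.0062 on average (-0.59 to 0.50 over 45 pairs), and in 0 pairs of groups were all values over 0.1. In PA, siErk3 and siMk5 libraries 1, 2 and 3 correlated at 0.50, 0.05 and 0.42, and siNTC and siErk3 libraries at -0.59, 0.01 and -0.58. The numbers were thus not shown to pair the samples, and a batch shared by some PA libraries was not tested. *Adar* with siErk3 in BSA, just over the fold limit, fell under it with DESeq2, its size factors, filterByExpr, no filter and only the groups compared, and *Dhx58* there passed with no filter, with only the groups compared and with the 18S share.

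Estimates that changed sign were called in neither case. For *Mavs* with siErk3 in BSA they were -0.00071 with DESeq2 size factors, -0.0088 with filterByExpr, -0.0055 with no filter, -0.0039 with only the groups compared and -0.033 with the 18S share. For *Mavs* with siMk5 in BSA they were -0.0025 with DESeq2 size factors, -0.0015 by DESeq2, -0.0043 with filterByExpr, and -0.012 both with no filter and with only the groups compared. *Mavs* was at -0.0045 with filterByExpr and -0.077 with the 18S share for siErk3 against siMk5 in BSA, and at -0.020 with the 18S share for PA under siMk5. With that share *Rigi* was at -0.031, *Dhx58* at -0.21 and *Eif2ak2* at -0.035 with siMk5 in BSA. *Eif2ak2* with siErk3 in PA was at 0.00069 with DESeq2 size factors, 0.00061 by DESeq2, 0.0012 with the block and 0.0098 with the 18S share. With 1 library left out, log2 fold changes ranged from -0.021 to 0.052 for *Mavs* with siErk3 in BSA, from -0.024 to 0.048 for *Mavs* in siErk3 against siMk5 there, from -0.0042 to 0.39 for *Dhx58*, from -0.011 to 0.034 for *Mavs* and from -0.38 to 0.072 for *Zbp1* with siMk5 in BSA, from -0.058 to 0.057 for *Eif2ak2* with siErk3 in PA and from -0.13 to 0.15 for the *Tlr3* interaction with siErk3. Depth limited *Dhx58*, *Zbp1* and *Ddx60* in BSA most.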
